A study of Homo sapiens with 6 samples.

Results

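miR-191 and miR-425 form a cluster, a pair of microRNA (miRNA) hairpins that lie close together on chromosome 3. All rows of the deposited table whose names begin with hsa-miR-191- or hsa-miR-425- were taken, which gave 4 of the 413 mature miRNAs, namely hsa-miR-191-5p, hsa-miR-191-3p, hsa-miR-425-5p and hsa-miR-425-3p, written without the species prefix from here on. The rule rests on names, and no measured value entered it. The libraries came from MDA-MB-231, an established cell line derived from a human triple-negative breast cancer, after 24 h with Withaferin A (WA) at 2 µM (n = 3) or without it (n = 3). WA is a steroidal lactone of Withania somnifera. The paper describes the control cells as treated with the vehicle DMSO, while the labels give them as a control group without WA and name no vehicle, and they are called vehicle-treated here. Nothing in the labels tells whether the 3 libraries of a group came from separate cultures, although the paper calls them independent, so the spread between them may be partly technical.

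A miRNA hairpin is cut by Dicer into a duplex, of which one strand is loaded into an Argonaute protein as the guide while the other, the passenger strand, is mostly degraded. The strand from the left side of the hairpin is called 5p and that from the right side 3p, and the balance between them is called arm choice. The guide finds its messenger RNA targets mainly through its seed, bases 2 to 8. miR-191 and miR-425 are made from an intron of the gene DALRD3, are induced by estrogen in estrogen-receptor-positive breast cancer cells, and miR-191-5p is so steadily expressed in many tissues that it serves as a reference in qRT-PCR. MDA-MB-231 cells lack the estrogen receptor.

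Both strands of miR-191 are shown because the ratio between them is the main measurement. Mature sequences from RefSeq (GRCh38.p14) were found for 3 of the 4 members, and the seed of each is given in capitals.
miR-191-5p: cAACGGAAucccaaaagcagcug
miR-191-3p: gCUGCGCUuggauuucgucccc
miR-425-3p: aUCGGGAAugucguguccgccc
The 3 seeds differ, and for each of them 0 other mature miRNAs of the RefSeq table share the seed. In the MIR191 hairpin, which is printed with its 5p and 3p strands in capitals, the strands take bases 16 to 38 and 58 to 79.
MIR191 hairpin: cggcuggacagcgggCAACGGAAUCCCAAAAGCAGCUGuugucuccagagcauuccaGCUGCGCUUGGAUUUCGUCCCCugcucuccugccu
The 92-base hairpin lies on the minus strand at chr3:49020618-49020709 and the 87-base MIR425 hairpin on the same strand at chr3:49020148-49020234, with 383 bases between them. In GENCODE release 44, 4 of the 15 annotated DALRD3 transcripts span each hairpin, and in these both hairpins are intronic and overlap 0 exons. NDUFAF3, a gene of the opposite strand, also overlaps MIR191. The guanine and cytosine content was 52.2% in miR-191-5p and 63.6% in miR-191-3p. The forward primer used for miR-191-3p in qRT-PCR, tgcgcttggatttcgtc, matched bases 3 to 19 of the 3p strand and was not found in the 5p strand. From these same libraries, the paper names miR-191-3p among its most up-expressed miRNAs after WA. It also counts this strand among those borne out by its qRT-PCR. qRT-PCR values were not analysed here.

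The deposited value of a miRNA is its reads divided by a size factor of the library. Within a library the values were all multiples of the same step, and in all 6 libraries the step was the inverse of the median-of-ratios size factor recomputed from those whole numbers. The whole numbers are given as reads, which assumes that 1 step is 1 read. At most 1 miRNA per library had a value of 1 step, too few to settle the step from low values alone, so no count model was fitted. The counts, the intervals and the limits of 0 below rest on this assumption. Reads over the 413 miRNAs ran from 710878 to 4778066 in the vehicle libraries and from 156442 to 2232934 in the WA libraries. WA replicate 3 stood apart, with Pearson correlations of 0.630 and 0.641 to the other WA libraries and of 0.772 to 0.797 to the vehicle libraries, across miRNAs on the log2 scale. Vehicle replicate 1 was also apart from its group, with correlations of 0.785 and 0.792 to vehicle replicates 2 and 3, which correlated with each other at 0.987. The level changes of the 4 members and the change of the miR-191 arm ratio are also given without each of these libraries. Most other results, among them several ratios and the shares over all miRNAs, are given with all 6 libraries only. All 5 miRNAs listed as abundant in this cell line were present, with 303876 to 440111 CPM (reads scaled to a common library total) together in the vehicle libraries and 207153 to 400084 in the WA libraries. This sum hides a difference between the WA libraries. miR-21-5p took 47789 of 156442 listed reads in WA replicate 1 and 162861 of 564882 in WA replicate 2. In WA replicate 3 it took 35976 of 2232934, where miR-221-3p had 225589 reads. The vehicle libraries held 99530 of 710878, 1411803 of 4778066 and 1135829 of 4196707 reads of miR-21-5p. Of 6 epithelial miRNAs, 4 were among the rows, at 140 to 1891 CPM together in the vehicle libraries and 0 to 739 in the WA libraries. Of the 6 markers of blood cells or serum, miR-486-5p alone was among the rows, at 360 to 909 CPM and at 0 to 729 CPM respectively. The part of these markers in the results was not tested.

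The 3p strand of miR-191 took a larger share of the hairpin in every WA library than in any vehicle library. Vehicle replicates 1 to 3 held 0, 96 and 90 reads of miR-191-3p next to 6215, 46753 and 46832 reads of miR-191-5p. WA replicates 1 to 3 held 14, 56 and 139 reads of the 3p strand beside 794, 2416 and 20405 of the 5p strand. The 5p strand thus remained the far more abundant strand in all 6 libraries. Expressed as 3p reads per 100 reads of 5p, the ratio was 0, 0.205 and 0.192 with vehicle, against 1.76, 2.32 and 0.681 with WA. The size factor of a library cancels in this ratio. The groups did not overlap, and neither did the exact 95% counting intervals, which reached 0.251 at most in the vehicle libraries and began at 0.572 in WA replicate 3. A count of 0 allows up to 3 reads, or a ratio of 0.0483 in vehicle replicate 1, and its interval ended at 0.0594, under those of the other vehicle libraries. Intervals and limits cover counting error only. Each library pools the RNA of many cells, so fewer cells making a miRNA and less of it per cell cannot be told apart.

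The mean ratio was 0.133 ± 0.115 with vehicle and 1.59 ± 0.832 with WA (SD, n = 3 each), which differ by 1.45 reads per 100. The WA mean was 12.0-fold higher, or 10.7-fold with vehicle replicate 1 set to 3 reads. Without WA replicate 3 the WA mean was 2.04, and without vehicle replicate 1 the means differed by 1.39. The two-sided exact permutation test gave p = 0.1, the smallest that 3 libraries against 3 allow, and 0.12 after Benjamini-Hochberg adjustment over the 6 ratios between members. When the reads of a group were summed, the ratio was 0.186 against 0.885, since WA replicate 3, the deepest and lowest WA library, then carries most of the weight. Depth differed between the groups. With every library thinned to 156442 reads, the 3p strand kept 0, 3 and 5 reads with vehicle, against 14, 13 and 11 with WA, and the thinned ratios differed by 1.34 reads per 100.

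**Figure D1:**
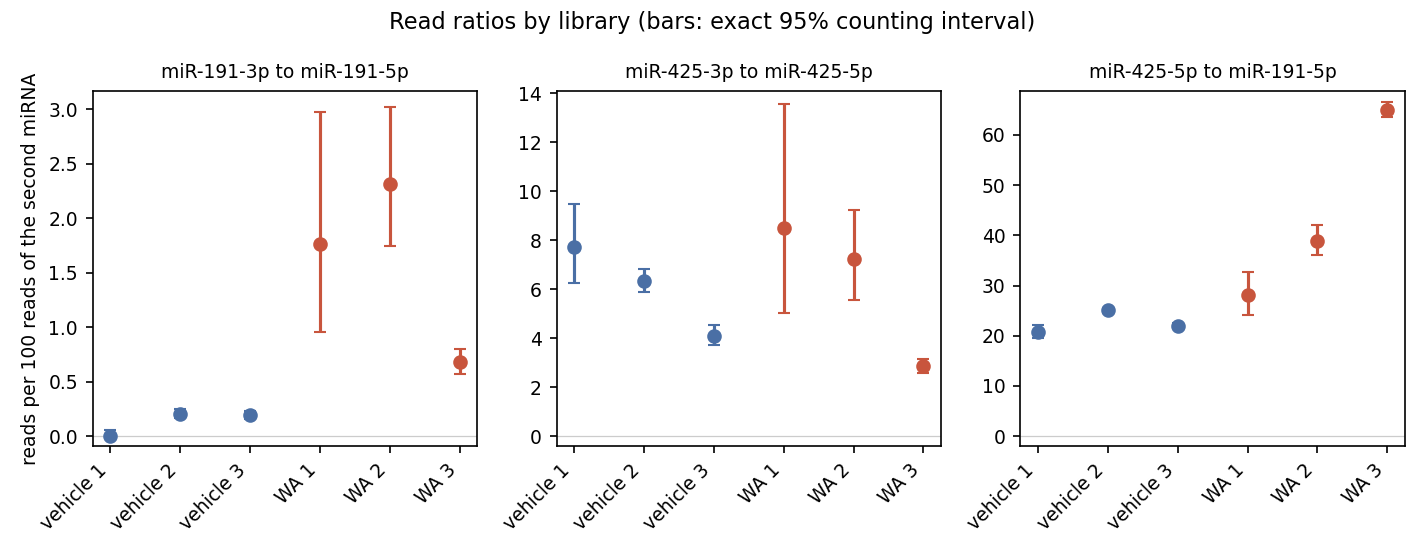
Reads per 100 reads of the second miRNA in each library, for miR-191-3p to miR-191-5p, miR-425-3p to miR-425-5p and miR-425-5p to miR-191-5p. Blue points are vehicle libraries, red points WA libraries, and bars the exact 95% counting interval. In the first and last panels every WA library lies above every vehicle library, while in the middle panel WA replicate 3 is lowest at 2.86 and the groups overlap.

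Next, the change in arm ratio was fitted for all 80 hairpins that had both strands past the filter, which asks that 3 or more libraries reach a normalized value of 10. For miR-191 the log2 change of the 3p to 5p ratio, with 1 added to each value, was 4.16 (standard error 1.41, 95% interval 0.939 to 7.38). The limma p was 0.0172 unadjusted and 0.138 after adjustment over the 80 hairpins, so this change did not pass the correction. No hairpin passed it (0%), while 16 (20%) had an unadjusted p under 0.05, with 8 changes in each direction. The log2 change of miR-191 rested in part on the 0 in vehicle replicate 1, without which it was 2.79 with a limma adjusted p of 0.130. Without WA replicate 3 it was 4.68 with a limma adjusted p of 0.0859, and 12 other hairpins then had an adjusted p under 0.05.

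By size, miR-191 was 4 of 80 in the order of rising 3p to 5p ratio and 10 of 80 by p-value. Above it were miR-10a (4.75), miR-100 (4.61) and miR-365a (4.25), and next below it miR-139 (3.97) and miR-769 (2.96). miR-10a, miR-139 and miR-769 had no read of either strand in WA replicates 1 and 2, where the added 1 sets the fitted ratio, so their changes are not comparable with that of miR-191. The change of miR-191 also depends on the added 1, through its 0 in vehicle replicate 1. It was 5.28 with 0.1 added and 2.92 with 10 added, and its ranks are given with 1 added only. Among the 74 hairpins with a read of either strand in every library, miR-191 was 3 of 74, after miR-100 and miR-365a. Of these 74, 7 (9.46%) had a higher ratio in every WA library than in any vehicle library, and miR-191 was 1 of them, while 16 (21.6%) did not overlap in either direction. The most negative changes were those of miR-664a (-8.84), miR-339 (-6.58) and miR-374a (-6.54), and none of these 3 passed the correction either.

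**Figure D2:**
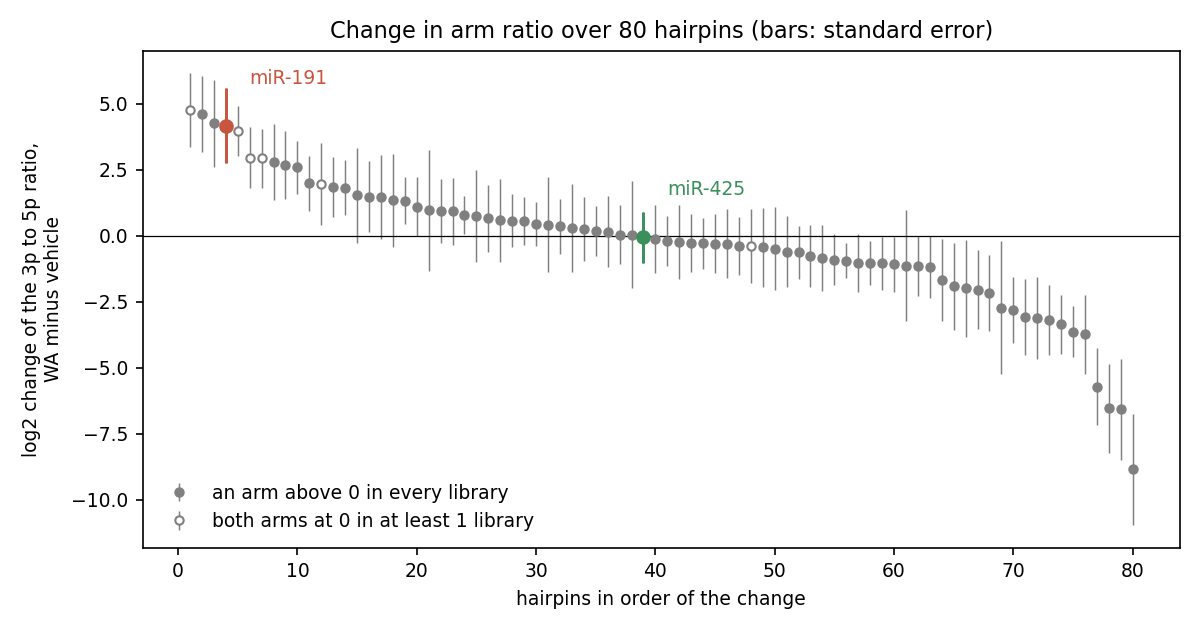
Change in the 3p to 5p ratio (log2, WA minus vehicle) for the 80 hairpins tested, in order of size, with standard errors as bars. Open points mark the 6 hairpins with both strands at 0 in at least 1 library. miR-191 (red) stands at 4.16 near the left end, and miR-425 (green) at -0.07 near the middle of the order.

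miR-425 is cut from the same intron, and its arm ratio did not separate the groups. Per 100 reads of miR-425-5p there were 7.73, 6.35 and 4.10 reads of miR-425-3p with vehicle, against 8.48, 7.23 and 2.86 with WA. The groups overlapped, with the highest and the lowest of the 6 values both in the WA group. The means were 6.06 ± 1.83 and 6.19 ± 2.95 (SD, n = 3 each, exact permutation test, two-sided p = 1). The log2 change was -0.07 with a limma adjusted p of 0.971. Its 95% interval ran from -2.25 to 2.12, which includes shifts of several-fold in either direction. Whether the arm changes of the 2 hairpins differ was not tested. The 3p strands were also set against each other, with 0, 12.9 and 21.3 reads of miR-191-3p per 100 reads of miR-425-3p with vehicle, against 73.7, 82.4 and 36.6 with WA. The groups did not overlap (exact permutation test, two-sided p = 0.1, adjusted p = 0.12). The count in WA replicate 1 was small, with 14 and 19 reads and a counting interval of 34.2 to 155. Per 100 reads of miR-425-5p there were 0, 0.818 and 0.873 reads of miR-191-3p with vehicle, against 6.25, 5.95 and 1.05 with WA. The WA values were higher, but the counting interval of WA replicate 3, from 0.879 to 1.24, overlapped those of vehicle replicates 2 and 3.

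The levels of the strands were then compared between the groups. None of the 4 members changed at a limma adjusted p under 0.05, a threshold passed by 18 (5.5%) of the 327 miRNAs tested. Groups without overlap were found for 1 of the 4, miR-191-3p, which was higher in WA-treated cells as were 7.65% of the tested miRNAs. None was lower in every WA library, where 19.6% of the tested miRNAs were, and 27.2% did not overlap in either direction. No member had an unadjusted p under 0.05 either, against 26.3% of the tested miRNAs. All 4 members passed the filter on low values. The median log2 fold change over all tested miRNAs was -0.91, and it was -0.84 with total-count scaling and -0.63 with upper-quartile scaling. It was -0.10 over the 173 miRNAs that reached 10 in every library.

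The guide strand hsa-miR-191-5p reached a normalized value of 8418, 13353 and 14314 with vehicle, against 4603, 4317 and 15331 with WA, in the order of the replicates. WA replicates 1 and 2 lay under all vehicle libraries, and WA replicate 3 above them. As a share of the listed reads, the strand took 0.874% to 1.12% in the vehicle libraries, 0.508% and 0.428% in WA replicates 1 and 2 and 0.914% in WA replicate 3. The means were 12028 ± 3164 and 8083 ± 6278 (SD, n = 3 each). On the log2 scale the difference was -0.80 with a standard error of 0.737 (limma adjusted p = 0.492). Without WA replicate 3 it was -1.39 (limma adjusted p = 0.0613), and without vehicle replicate 1 it was -1.04 (limma adjusted p = 0.381).

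The values of the passenger strand hsa-miR-191-3p were 0, 27.4 and 27.5 with vehicle, against 81.2, 100.1 and 104.4 with WA. In contrast to its partner, this strand had a like normalized value in all 3 WA libraries. As a share of the listed reads it took 0.00895%, 0.00991% and 0.00622% in WA replicates 1 to 3. The counting intervals of WA replicate 2 (0.00749% to 0.0129%) and WA replicate 3 (0.00523% to 0.00735%) did not overlap. With vehicle the shares were 0%, 0.00201% and 0.00214%. The means of the normalized values were 18.3 ± 15.9 and 95.2 ± 12.4 (SD, n = 3 each). On the log2 scale the groups differed by 3.36 with a standard error of 1.59 (limma adjusted p = 0.226). The 95% interval of this fold change ran from -0.35 to 7.07. Without vehicle replicate 1, the library at 0, it was 1.75 (limma adjusted p = 0.249), and without WA replicate 3 it was 3.29 (limma adjusted p = 0.155).

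For hsa-miR-425-5p, the guide strand of the neighbouring hairpin, the values were 1753, 3354 and 3153 with vehicle, against 1299, 1681 and 9975 with WA. WA replicates 1 and 2 were again under the lowest vehicle library, and WA replicate 3 was above the highest one. The means were 2753 ± 872 and 4318 ± 4903 (SD, n = 3 each). The log2 fold change was 0.08 (standard error 0.896, limma adjusted p = 0.951), and it turned to -0.84 without WA replicate 3 (limma adjusted p = 0.218) and to -0.22 without vehicle replicate 1 (limma adjusted p = 0.890). Its passenger strand hsa-miR-425-3p had values of 135, 213 and 129 with vehicle, against 110.1, 121 and 285 with WA. WA replicate 3 was again highest, and the means were 159 ± 46.7 and 172 ± 98.1 (SD, n = 3 each). Its log2 fold change was 0.01 (standard error 0.890, limma adjusted p = 0.990), and it turned to -0.42 without WA replicate 3 (limma adjusted p = 0.573) and to -0.09 without vehicle replicate 1 (limma adjusted p = 0.939).

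**Figure D3:**
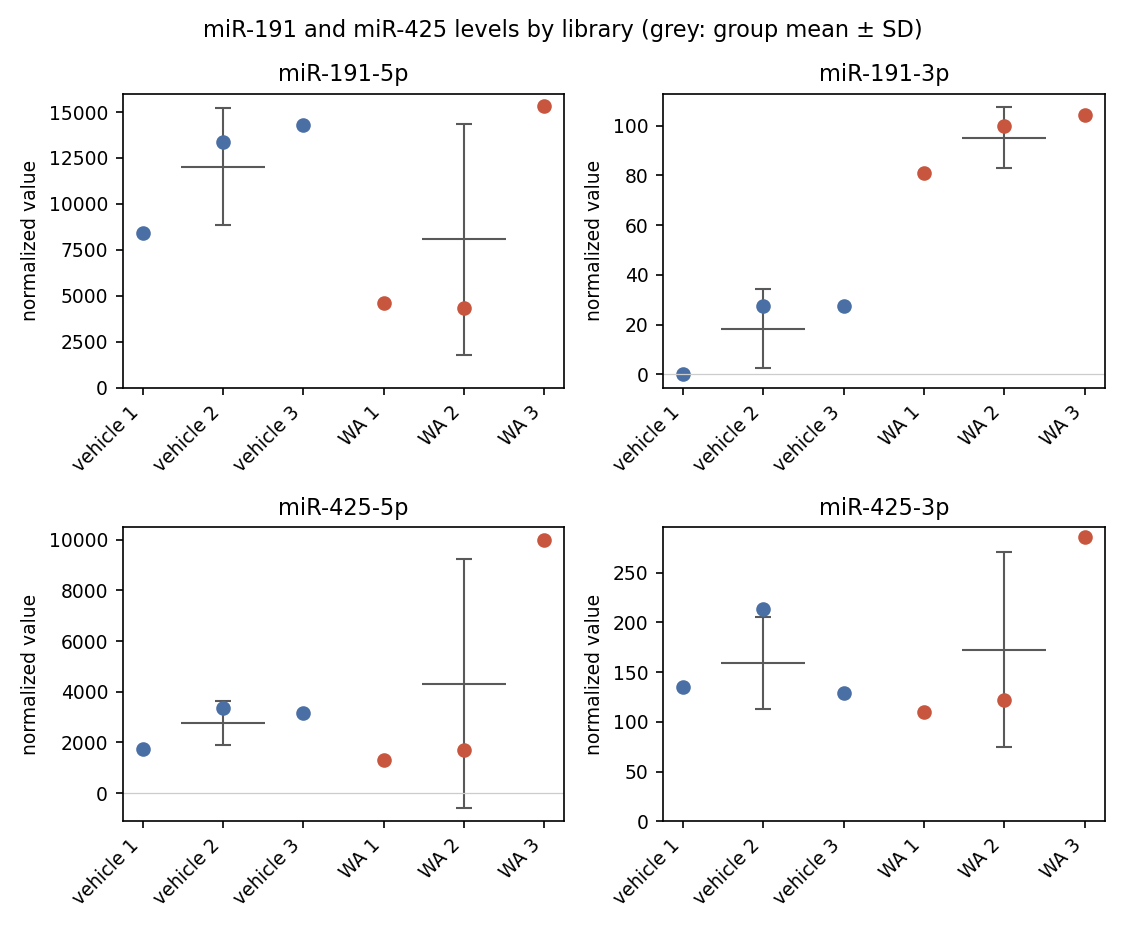
Normalized values of the 4 members in each library, with blue points for vehicle and red points for WA libraries and grey lines for the group mean ± SD. miR-191-3p lies between 81.2 and 104.4 in the WA libraries, above all vehicle libraries, while for the other 3 strands WA replicate 3 lies above the vehicle libraries and WA replicates 1 and 2 lie under them.

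The guide strands of the 2 hairpins were then set against each other. Per 100 reads of miR-191-5p there were 20.8, 25.1 and 22.03 reads of miR-425-5p with vehicle, against 28.2, 38.9 and 65.1 with WA. Every WA library was above every vehicle library, and WA replicate 3 was the highest. The counting interval of WA replicate 1, from 24.2 to 32.8, reached into that of vehicle replicate 2, from 24.6 to 25.6. The means were 22.7 ± 2.22 and 44.1 ± 19.0 (SD, n = 3 each), a difference of 21.4 reads per 100 (exact permutation test, two-sided p = 0.1, adjusted p = 0.12). Without WA replicate 3 the difference was 10.9. The ratio of miR-425-3p to miR-191-5p was likewise 0.903 to 1.61 reads per 100 in the vehicle libraries and 1.86 to 2.81 in the WA libraries. Thus all 3 other strands of the cluster were higher relative to miR-191-5p in every WA library. The ratio to miR-191-5p was higher in every WA library for 35 (10.7%) of the 326 other tested miRNAs and lower for 56 (17.2%). Among the 208 of these that were above 0 in every library, the shares were 13.9% and 7.21%. The ratios of the 3 members share their denominator and are not independent of each other.

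Because miR-191-5p and miR-425-5p are used as qRT-PCR references, they were set beside 11 other miRNAs of that use, all of which were listed and tested. None of the 11 passed a limma adjusted p of 0.05, against 5.5% of all tested miRNAs. Their log2 fold changes were positive for 8 and negative for 3, with a median of 0.58 and a range from -2.21 to 4.10. The median over all tested miRNAs was -0.91, but many of these were low or at 0 in some libraries. All 11 had a value above 10 in every library. Over the 173 miRNAs that reached 10 in every library, the median was -0.10. With all 6 libraries the change of miR-425-5p was smaller in size than that of all 11, and the change of miR-191-5p was larger than that of 4 of them. The small change of miR-425-5p averages a pair of WA libraries under the vehicle group and 1 above it. Without WA replicate 3 it was -0.84, larger in size than 6 of the 11, and without WA replicate 1 it was 0.63, larger than 2 of them. The change of miR-191-5p was then larger than that of 8 and of 2 of the 11. For 3 of the 11 the groups were apart, where this held for 27.2% of all tested miRNAs. miR-16-5p was higher in every WA library, at 9223 to 60816 against 515 to 2886 with vehicle, with a log2 fold change of 4.10 and a limma adjusted p of 0.0678. Both strands of miR-423 were lower in every WA library, with log2 fold changes of -1.83 for miR-423-5p and -2.21 for miR-423-3p and limma adjusted p-values of 0.176 and 0.0943. let-7i-5p (-0.10), miR-30e-5p (0.23) and miR-25-3p (0.31) had the smallest changes of the 11.

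**Figure D4:**
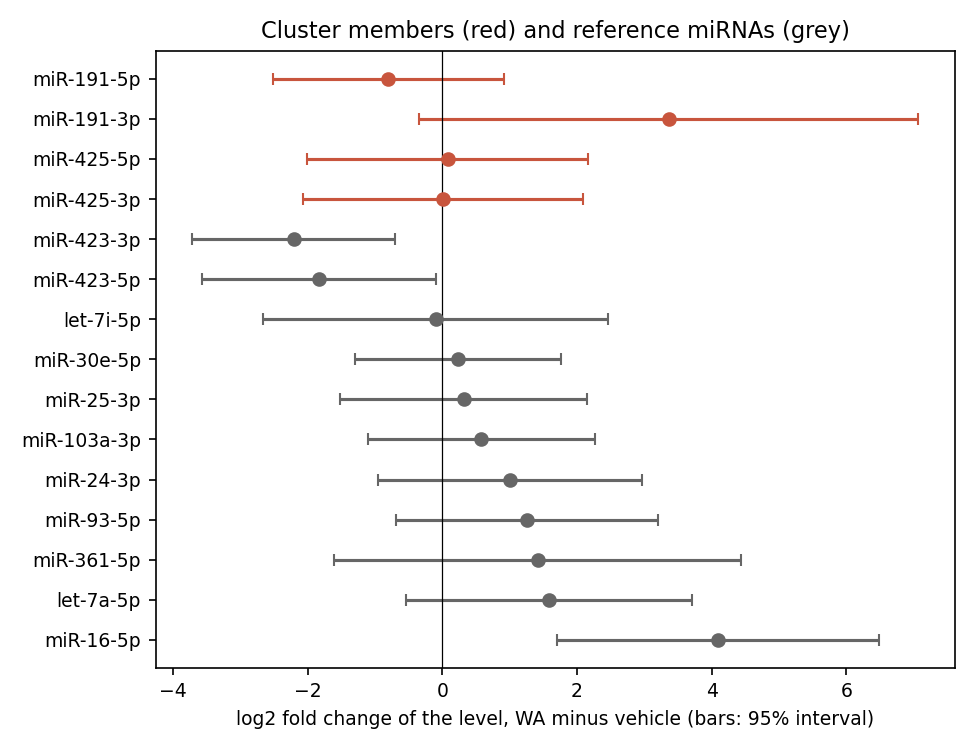
Log2 fold change of the level (WA minus vehicle) with its 95% interval for the 4 members of the cluster (red) and the 11 reference miRNAs (grey). The intervals of all 4 members include 0, and so do those of all reference miRNAs except miR-423-3p, miR-423-5p and miR-16-5p.

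As a description, the members were also ranked by likeness of their pattern over the 6 libraries, using the Pearson correlation of log2 values. Libraries of 1 group and their depth are shared by all of these points. The strands of a single hairpin were not alike for miR-191, where 5p and 3p correlated at -0.141, and were alike for miR-425, at 0.913. miR-425-5p and miR-191-5p correlated at 0.813. The 3 miRNAs most like miR-191-5p were miR-18a-3p (0.994), miR-3074-5p (0.992) and miR-4326 (0.989). Those most like miR-191-3p were miR-130a-3p (0.975), miR-30e-3p (0.962) and miR-100-3p (0.943), and miR-100-3p is the passenger strand of a hairpin that ranked above miR-191 by the change in arm ratio. All 3 were lowest in vehicle replicate 1, where miR-191-3p was at 0. Outside that library miR-30e-3p differed little, at 573 and 630 with vehicle and 603 to 691 with WA. The correlations of miR-191-3p thus rest in part on that library, and they were not computed without it. miR-671-5p (0.940), let-7b-5p (0.937) and miR-25-3p (0.936) were most like miR-425-5p. For miR-425-3p they were miR-425-5p itself, let-7b-5p (0.891) and miR-181a-3p (0.863).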

How the data were processed

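Small RNA libraries of MDA-MB-231 cells were used, 3 from vehicle-treated and 3 from WA-treated cells. The authors trimmed the reads (Trim Galore), aligned them with Bowtie to GRCh38.p10, discarded those of other noncoding RNAs, assigned the remainder to mature miRNAs and normalized with DESeq2. The deposited signal per miRNA is the read count divided by a library size factor. The authors' 4 columns of fold changes and p-values were not used. Values were taken as whole within 0.001 of a step.

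Levels were tested on log2(value + 1) with limma 3.58.1 (R 4.3.3), with a variance trend, two-sided and unpaired. Benjamini-Hochberg adjustment ran over the 327 miRNAs that reached 10 in 3 or more libraries. The added 1 understates changes between low values above 0, while beside a value of 0 it sets the size of the change. The log2 fold change of miR-191-3p, at 0 in vehicle replicate 1, was 3.36 with 1 added, 4.48 with 0.1 added and 2.12 with 10 added. Arm ratios were fitted in the same way over 80 hairpins. Single ratios were compared by exact permutation tests (scipy 1.17.1, Python 3.11.15). The fits were run on simulated data only as a check of the computation. In those data no library stood apart from its group, so they do not show how the fits behave with these libraries. The members, the lists and the rule for named miRNAs (members, reference miRNAs, the 3 most alike, and the neighbours and extremes in arm ratio) were chosen with earlier results of these data known. The 3p to 5p ratio of both hairpins was among the measurements set at the start, while the exact test of that of miR-425 and the 3 ratios between other strands were added after the values were seen. GRCh38.p14 coordinates are those of RefSeq.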

Additional observations from a re-analysis of the deposited data

How the results depend on the processing

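For the miR-191 arm ratio, the log2 change stayed positive in 13 alternatives, from 2.79 to 5.28, with limma adjusted p-values from 0.0859 to 0.280. It has no value when 10 is required in every library, since miR-191-3p is then not tested. The ratio of miR-191-3p to miR-191-5p differed by 1.09 to 1.91 reads per 100 with each library left out, and that of miR-425-5p to miR-191-5p by 10.9 to 29.4. Such tests cannot give an exact p under 0.2.

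Of miRNAs, 18 passed an adjusted p of 0.05 by limma. This count was 0 with upper-quartile scaling (79 unadjusted), 53 with no filter, 0 with a value of 10 in every library (29 unadjusted), 7 with a pseudocount of 0.1, 7 with a pseudocount of 10, 5 after thinning, and between 0 and 147 when single libraries were dropped, with 147 reached without WA replicate 3. Of hairpins, 1 passed with a value of 10 in every library (38 tested), 1 after thinning (35 tested) and between 0 and 12 when single libraries were dropped, with 12 reached without WA replicate 3. No member was among these calls.

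The signs of miR-425 were not settled. The log2 fold change of miR-425-5p ran from -0.84 to 0.63 and that of miR-425-3p from -0.42 to 0.26 with each library left out, and its arm change from -0.37 to 0.42, and was 0.0561 after thinning. The difference in its 3p to 5p ratio ran from -1.02 to 1.79 reads per 100, and was -0.0659 on the log2 scale. The cause was not tested.

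No pairing by replicate number showed in the values, where the deviations of like-numbered libraries from their group means correlated at -0.0692, 0.0571 and -0.0874. Such correlations cannot tell whether the libraries were handled in pairs. With the replicate number as a block, 24 miRNAs and 0 hairpins passed, and the arm change of miR-191 had an adjusted p of 0.150 by limma. The median of the reference miRNAs stayed between 0.249 and 0.853. Alternatives for the exact test of the miR-425 arm ratio and the limit to hairpins with a read in every library were added after seeing the data, the others were set earlier. The edgeR test was not run, because the values are normalized and too few low values were at hand to recover reads with certainty. The 14 reads of miR-191-3p in WA replicate 1 limit its precision.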

Other observations

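Some other hairpins also had a 3p to 5p ratio that was higher in every WA library, and they are named here after their values were seen. They were miR-100, miR-1306, miR-130b, miR-502, let-7i and miR-27b. In miR-100, whose 5p strand is by far the more abundant one, the ratio was 0, 0.00668 and 0.00886 reads per 100 with vehicle, against 0.384, 0.265 and 0.0359 with WA. As in miR-191, the vehicle library at 0 was replicate 1 and the lowest WA library was replicate 3. The 0 in miR-100 stood beside 19422 reads of the 5p strand. Vehicle replicates 2 and 3 held only 37 and 41 reads of the 3p strand beside 553556 and 462994 of the 5p strand. At ratios this low, a 0 in the smaller library tells little. In miR-130b the ratio was 28.8, 14.7 and 7.53 reads per 100 with vehicle, against 104, 68.2 and 101 with WA. The limma adjusted p of the change was 0.110 for miR-100 and 0.181 for miR-130b, so neither passed the correction. In the other direction, 9 of the 74 hairpins (12.2%) had a lower ratio in every WA library, with miR-671 at 219 to 273 reads per 100 with vehicle and 11.8 to 26.7 with WA.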
